A study of Mus musculus with 6 samples.

Results

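CatSper is the calcium channel of the sperm tail, and the 6 genes described here encode subunits of it: Catsper1, Catsper2, Catsper3, Catsper4, Catsperb and Catsperd. They were chosen by name and by no cut on their values, though earlier results of these data were known. Each matched 1 of the 21310 Ensembl gene identifiers in the deposited mRNA table. That table holds read counts for pachytene spermatocytes isolated from mouse testes, that is, male germ cells whose paired chromosomes recombine in the first meiotic prophase. It has 2 libraries, 1 from wild type (WT) mice and 1 from mice homozygous for a null allele of Alkbh1 (Alkbh1-/-), an AlkB family dioxygenase, made by deleting exon 6 and backcrossed to C57/BL6 (the spelling of the labels). The labels give neither the age nor the number of animals behind a library. The study also holds 4 small RNA libraries (2 WT, 1 Alkbh1-/- and 1 TzfpGTi/GTi, homozygous for a gene trap in Tzfp), which were not used here because their clusters carry no gene names.

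CatSper sits in the membrane of the principal piece of the flagellum and lets calcium in when the sperm cytoplasm becomes alkaline. Its pore is built from CATSPER1, CATSPER2, CATSPER3 and CATSPER4 together, and transmembrane subunits including CATSPERB and CATSPERD form a canopy on the outer face. Male mice that lack a pore subunit are infertile because their sperm cannot hyperactivate, the vigorous beating needed to pass the egg coat. The proteins act in sperm, a later stage than the pachytene cells these libraries were made from. The libraries also held transcripts of marker genes of spermatids and of other testis cells, whose values are given below.

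The promoters of 4 of these genes are shown because the members differed from one another in how far they stood from WT. Catsper3 and Catsper4 had the largest differences, and Catsper2 and Catsperd smaller ones. The window of Catsperb, the member with the smallest difference, is not printed but is described below. Catsper1 had no window in the promoter sequences used and is not part of this description. Each window holds 250 bases before and 50 bases after a RefSeq transcription start, 5′ to 3′ on the strand of the gene, on build GRCm38.p6. Capitals mark TGACG or its reverse complement, the core of the element bound by factors of the CREB and CREM family. The windows are chr13:55784329-55784628 (plus strand) for Catsper3, chr4:134227334-134227633 (minus strand) for Catsper4, chr2:121413743-121414042 (minus strand) for Catsper2 and chr17:56626797-56627096 (plus strand) for Catsperd.
Catsper3: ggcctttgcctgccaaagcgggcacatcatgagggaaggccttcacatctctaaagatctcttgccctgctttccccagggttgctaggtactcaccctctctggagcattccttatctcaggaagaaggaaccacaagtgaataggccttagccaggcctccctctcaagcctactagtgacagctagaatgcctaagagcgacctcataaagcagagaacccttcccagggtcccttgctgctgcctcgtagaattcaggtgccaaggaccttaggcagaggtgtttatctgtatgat
Catsper4: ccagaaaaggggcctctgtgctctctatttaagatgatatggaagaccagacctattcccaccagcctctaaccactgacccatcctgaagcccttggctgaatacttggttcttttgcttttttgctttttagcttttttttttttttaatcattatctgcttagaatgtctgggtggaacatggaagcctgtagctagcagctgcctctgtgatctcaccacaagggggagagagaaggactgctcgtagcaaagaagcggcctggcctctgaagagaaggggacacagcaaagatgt
Catsper2: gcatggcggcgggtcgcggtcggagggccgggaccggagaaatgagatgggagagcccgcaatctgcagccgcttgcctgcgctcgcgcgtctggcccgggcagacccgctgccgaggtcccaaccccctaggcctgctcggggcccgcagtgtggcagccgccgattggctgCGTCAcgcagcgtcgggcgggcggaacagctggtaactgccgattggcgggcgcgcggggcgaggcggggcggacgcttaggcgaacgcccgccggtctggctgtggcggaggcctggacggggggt
Catsperd: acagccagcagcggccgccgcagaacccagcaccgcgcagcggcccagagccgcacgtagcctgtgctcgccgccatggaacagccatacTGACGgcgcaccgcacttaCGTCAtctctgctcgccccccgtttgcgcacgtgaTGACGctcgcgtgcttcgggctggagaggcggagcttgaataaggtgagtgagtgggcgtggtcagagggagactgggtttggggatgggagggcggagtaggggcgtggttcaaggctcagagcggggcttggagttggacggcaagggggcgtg

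TGACG occurred 1 time in the Catsper2 window, at base 174 on the reverse strand. It occurred 3 times in this Catsperd window, at bases 91 and 145 on the forward strand and at base 110 on the reverse strand, counted from 1 at the 5′ end. The windows of Catsper3, Catsper4 and Catsperb and the second window of Catsperd did not hold these letters. Among the windows of these 5 genes, those without them included both the genes with the largest differences and the gene with the smallest. A relation between sequence and difference was not tested. Of all 32851 promoter windows of the same length, 20.8% held TGACG on either strand. The full palindrome TGACGTCA, which contains TGACG on both strands, was in 1.79% of all windows. For AACNGTT, a site of the MYB family, this share was 4.45%, for the TATA box letters TATAAA 13.6%, and for GTTGCNAT, a part of the RFX element, 2.96%. No window of these 5 genes held any of these 4 motifs, which says only that the letters are not in these stretches. Base composition differed widely: G and C made up 74.7% of the Catsper2 window and 66.7% of the Catsperd window shown, against 52.3% for Catsper3, 46.7% for Catsper4 and 38% for Catsperb. The median over all windows was 52.7%, with quartiles of 45.7% and 61.7%. The second Catsperd window had 53% G and C. The dinucleotide CG occurred 41 times in the Catsper2 window, 29 times in the Catsperd window shown and 12 times in the second one. It occurred 3 times in that of Catsper3, 2 times in that of Catsper4 and 1 time in that of Catsperb. The windows poor in CG included both the genes with the largest differences and the gene with the smallest, and here too a relation was not tested.

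All 6 members had more scaled counts in Alkbh1-/- than in WT, against 47.9% of the 12189 genes that reached 5 CPM in either library. Of the 6, the pore subunit genes Catsper3, Catsper4 and Catsper1 were at least 1.5-fold higher, against 8.06% of those genes. The fourth pore subunit gene, Catsper2, and the auxiliary genes Catsperd and Catsperb differed by less. Values are counts scaled to library size (CPM) after TMM scaling, which corrects library totals for differences in composition. Because there is 1 library per genotype, no test was possible, the variation between animals is unknown, and the 95% intervals given cover counting error only.

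**Figure D1:**
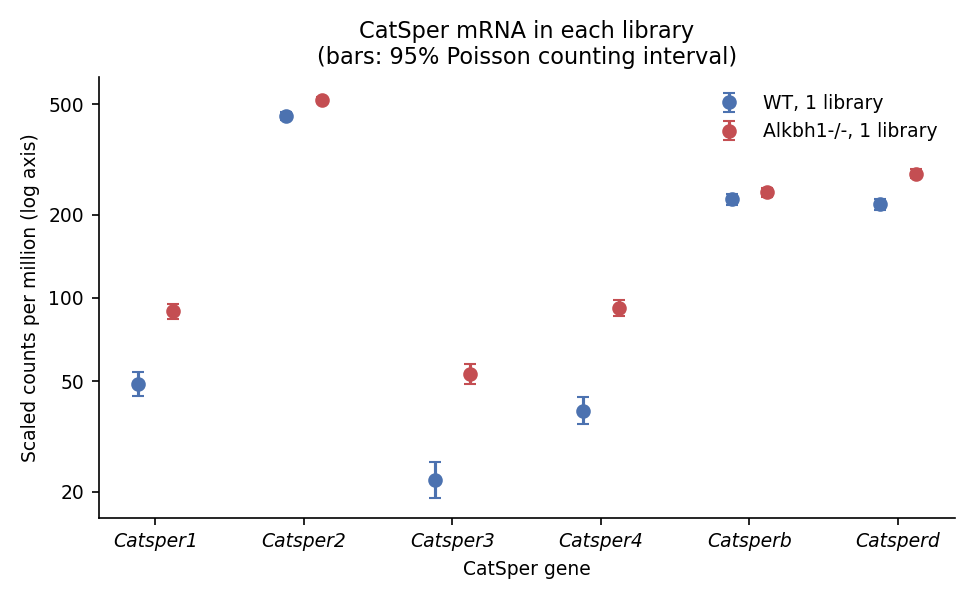
Scaled counts (CPM, log axis) of the 6 CatSper genes in the WT library (blue) and the Alkbh1-/- library (red), with bars for the 95% Poisson counting interval. Catsper3 stood at 22.1 in WT and 53.3 in Alkbh1-/-, while Catsperb stood at 227 and 241.

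Among the pore subunit genes, Catsper3 (ENSMUSG00000021499, chromosome 13) had 180 counts in WT and 551 in Alkbh1-/-. These were 22.1 CPM and 53.3 CPM, a ratio of 2.41 (exact interval 2.03 to 2.87). Catsper4 (ENSMUSG00000048003, chromosome 4) had 319 counts in WT and 951 in Alkbh1-/-, or 39.2 and 92.0 CPM, a ratio of 2.35 (2.06 to 2.67). These genes had nearly the same ratio, and their intervals overlapped over most of their length. Catsper1 (ENSMUSG00000038498, chromosome 19), which encodes the subunit with a histidine-rich tail, had 397 and 925 counts. Its level was 48.8 CPM in WT and 89.5 CPM in Alkbh1-/-, a ratio of 1.83 (1.63 to 2.07).

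Catsper2 (ENSMUSG00000033486, chromosome 2) stood apart from the other pore subunit genes, with 3699 counts in WT and 5349 in Alkbh1-/-. Its level was 455 CPM in WT and 517 CPM in Alkbh1-/-, a ratio of 1.14 (1.09 to 1.19), whose upper bound lay below the lower bounds of Catsper1, Catsper3 and Catsper4. In the RefSeq annotation Catsper2 overlaps Pdia3, which encodes a protein disulfide isomerase of the endoplasmic reticulum. Pdia3 had 3826 WT counts and 5838 Alkbh1-/- counts, a ratio of 1.20 (1.15 to 1.25). Strand use in the authors' counting is not given in these sources, so the counts of Catsper2 are uncertain where the genes overlap.

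Of the auxiliary subunit genes, Catsperd (ENSMUSG00000040828, chromosome 17) had 1773 counts in WT and 2902 in Alkbh1-/-. Its level was 218 CPM in WT and 281 CPM in Alkbh1-/-, a ratio of 1.29 (1.21 to 1.37). Catsperb (ENSMUSG00000047014, chromosome 12) had 1849 and 2488 counts, or 227 and 241 CPM. Its ratio of 1.06 (0.997 to 1.13) was the smallest of the 6, and its interval included 1. Levels were not ranked between genes, because counts grow with transcript length and lengths were not used here.

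**Figure D2:**
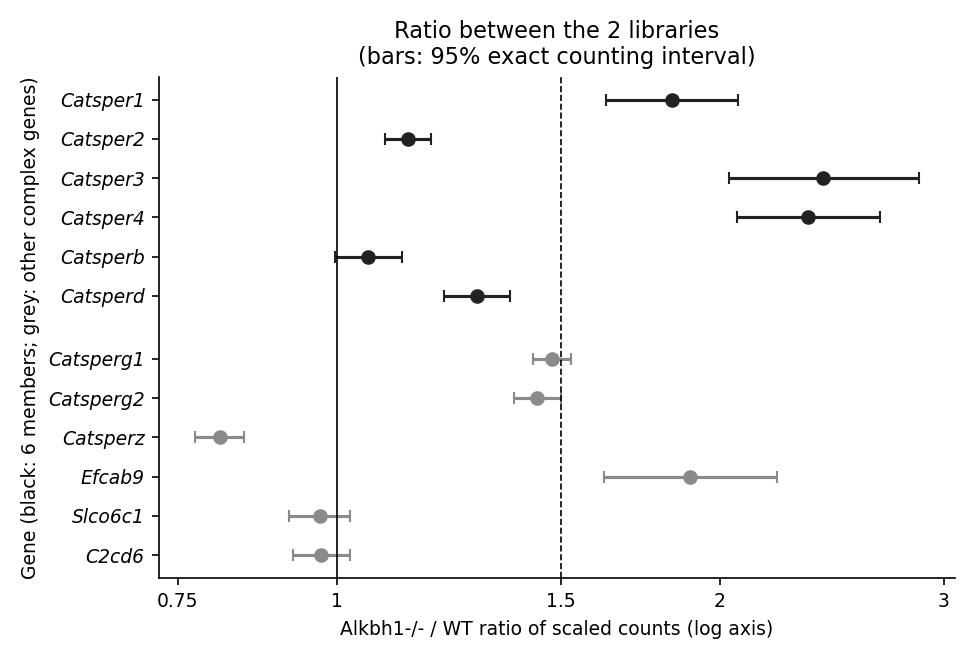
Ratio of scaled counts, Alkbh1-/- over WT (log axis), for the 6 members (black) and 6 other genes of the channel complex (grey), with 95% exact counting intervals, a solid line at 1 and a dashed line at 1.5. Catsper1, Catsper3, Catsper4 and Efcab9 lie right of the dashed line with their whole intervals, and Catsperz lies left of 1 with its whole interval. Slco6c1 and C2cd6 lie just left of 1, with intervals that include 1.

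Summed over the 6 genes there were 8217 counts in WT and 13166 in Alkbh1-/-, which is 1010 and 1273 CPM (ratio of 1.26, from 1.23 to 1.3). Their make-up differed between the libraries, and this comparison does not depend on the scaling. Catsper1, Catsper3 and Catsper4 together held 10.9% of the 6 genes' counts in WT (95% Wilson interval 10.2 to 11.6) and 18.4% in Alkbh1-/- (17.8 to 19.1). Catsper4 alone went from 3.88% (3.49 to 4.32) in WT to 7.22% (6.79 to 7.68) in Alkbh1-/-. Catsper2 held 45.0% (43.9 to 46.1) in WT and 40.6% (39.8 to 41.5) in Alkbh1-/-, and Catsperb 22.5% (21.6 to 23.4) and 18.9% (18.2 to 19.6). The share of Catsperd was close in both, at 21.6% (20.7 to 22.5) in WT and 22.0% (21.3 to 22.8) in Alkbh1-/-. Of the 15 pairs of members, 11 had ratios whose counting intervals did not overlap. The 4 pairs with overlapping intervals were those among Catsper1, Catsper3 and Catsper4, and that of Catsper2 with Catsperb. The counts of Catsper2 are uncertain where it overlaps Pdia3. The sum, all the shares and the pairs with Catsper2 carry that uncertainty, which their intervals do not cover.

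**Figure D3:**
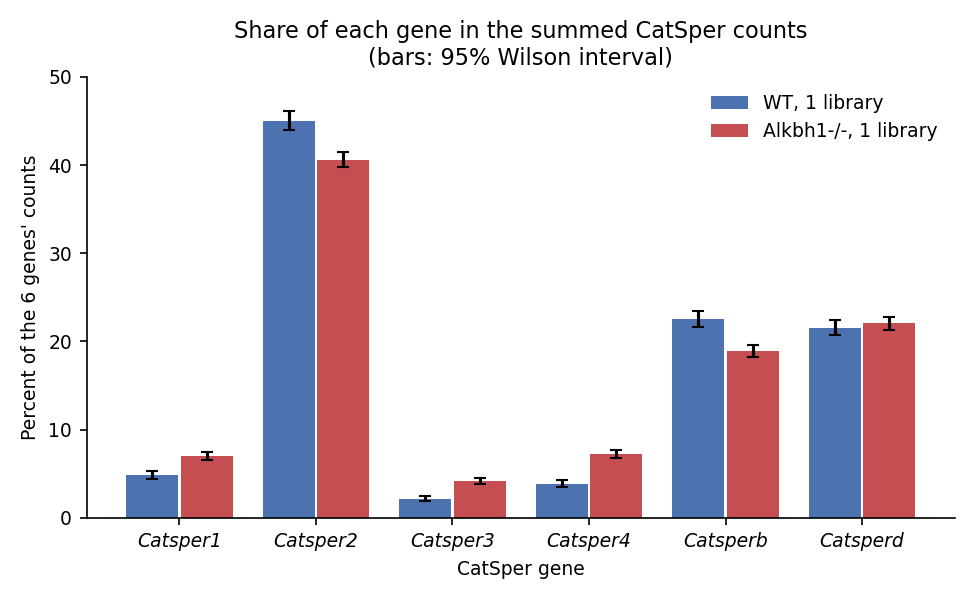
Percent of the summed counts of the 6 CatSper genes that each gene held in WT (blue) and Alkbh1-/- (red), with 95% Wilson intervals. Catsper1, Catsper3 and Catsper4 held larger shares in Alkbh1-/-, Catsper2 and Catsperb smaller ones, and the intervals of Catsperd overlapped.

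The members were then placed among these 12189 measured genes on the scale log2((Alkbh1-/- + 1)/(WT + 1)), whose pseudocount of 1 CPM understates differences of low genes. All 6 members passed this floor, each in both libraries. On this scale 3 of the 6 were at least 1.5-fold higher, against 8.06% of all genes, and 0 were at least 1.5-fold lower, against 8.79%. At 2-fold, 2 of the 6 were higher, against 1.8% of all genes, and 0 were lower, against 2.71%. By sign, 6 of the 6 were above 0, against 47.9%. The median of the members was 0.61 and that of all genes -0.017. Catsper3 (1.23) ranked 86 from the highest of all 12189 genes, Catsper4 (1.21) 92 and Catsper1 (0.86) 389, while Catsperd (0.36) ranked 1953, Catsper2 (0.19) 3326 and Catsperb (0.082) 4593.

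The members with the larger differences were also those with fewer counts, so the background was taken at like levels, a comparison added after the values were seen. Of 1973 genes with a mean of the libraries between 37.7 and 69.1 CPM, the range of Catsper1, Catsper3 and Catsper4, 6.08% passed 1.5-fold on the higher side and 1.32% passed 2-fold. Of 626 genes between 234 and 486 CPM, the range of Catsper2, Catsperb and Catsperd, 0.479% passed 1.5-fold on the higher side and 0% passed 2-fold. Differences past these lines were rarer among genes at the level of Catsper2, Catsperb and Catsperd, none of which passed them.

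**Figure D4:**
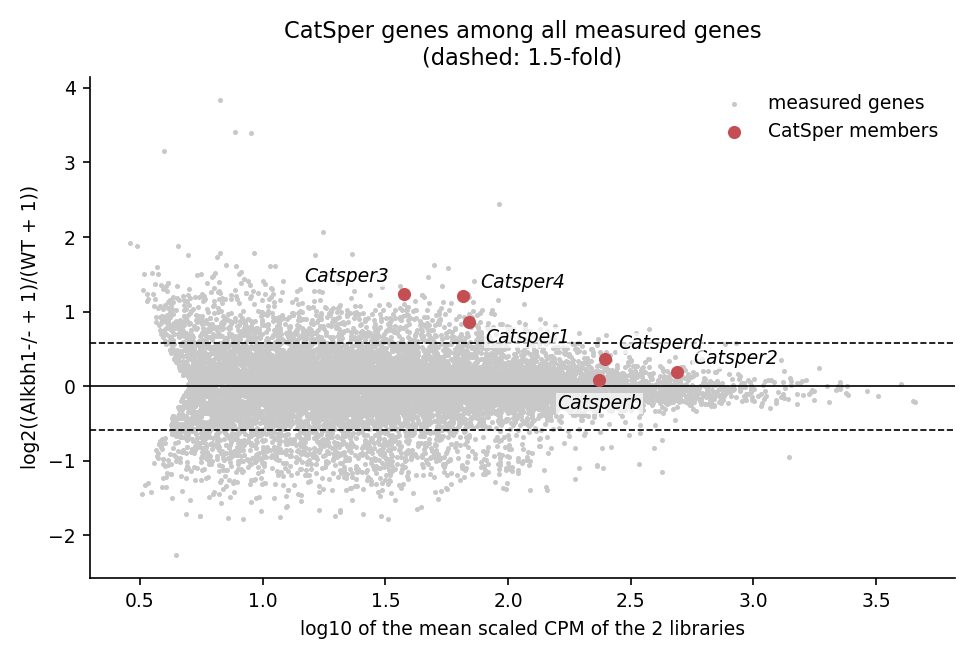
Difference between the libraries, log2((Alkbh1-/- + 1)/(WT + 1)), against the log10 of the mean scaled CPM for the 12189 measured genes (grey) and the 6 CatSper genes (red), with dashed lines at 1.5-fold. Catsper3, Catsper4 and Catsper1 lie above the upper dashed line, and Catsperd, Catsper2 and Catsperb lie between 0 and that line.

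The other genes of the channel complex did not all stand on the same side as the members. Of 11 listed, 6 were matched and measured, and 1 of the 6 passed 1.5-fold on the higher side and 0 on the lower, against 8.06% and 8.79% of all genes, with a median log2 difference of 0.24. Catspere1, Catspere2, Tmem249, Tmem262 and Trim69 were not matched and were not analysed here. The canopy genes Catsperg1 and Catsperg2, close paralogs that may share reads, stood at 619 and 404 CPM in the WT library against 914 and 581 CPM in the Alkbh1-/- library. Their ratios were 1.48 (1.43 to 1.53) for Catsperg1 and 1.44 (1.38 to 1.5) for Catsperg2, just under the 1.5-fold line. Efcab9 and Catsperz encode partners that bind each other on the cytoplasmic side of the channel, and they lay on opposite sides of 1. Efcab9, the calcium-binding partner, stood at 28.6 CPM in WT against 54.3 CPM in Alkbh1-/-, a ratio of 1.89 (1.62 to 2.22). Catsperz stood at 484 CPM in WT against 392 CPM in Alkbh1-/-, a ratio of 0.809 (0.774 to 0.846). Slco6c1, an organic anion transporter family member found with the channel, had 280 and 272 CPM (ratio 0.970, interval 0.917 to 1.03). C2cd6, a C2 domain protein that carries the channel to the flagellum, had 326 and 317 CPM (ratio 0.972, interval 0.924 to 1.02).

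Genes that act beside CatSper in sperm ion transport and capacitation, the maturation that makes sperm able to fertilize, were mostly higher by sign. Whatever the size of the difference, 18 of the 21 measured were above 0, against 47.9% of all measured genes. For the voltage-gated and two-pore calcium channel genes described at the end, it was 11 of 16. Of 26 listed, 25 were matched and 21 measured, of which 5 passed 1.5-fold on the higher side and 0 on the lower, against 8.06% and 8.79% of all genes, with a median log2 difference of 0.25. The highest were Kcnu1, the alkalinization-gated potassium channel of sperm (37.7 CPM in WT, 77.7 CPM in Alkbh1-/-, log2 difference 1.02), and Cftr, a chloride channel (16.3 and 33.0 CPM, 0.97). The lowest were Prkaca, the catalytic subunit of protein kinase A (196 and 170 CPM, -0.20), and Atp2b4, a calcium pump of the plasma membrane (367 and 349 CPM, -0.072). By its ratio, Kcnu1 (2.06, interval 1.80 to 2.36) lay between Catsper1 and Catsper4.

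For each member, the gene outside the set with the closest pair of levels was found by Euclidean distance over log2(CPM + 1) in the 2 libraries, which with only 2 points is a weak measure of likeness. It was Prss54 for Catsper3 (22.6 and 52.9 CPM in WT and Alkbh1-/-, distance 0.032), Zp3r for Catsper4 (40.6 and 97.3 CPM, 0.093) and Spaca1 for Catsper1 (51.3 and 89.7 CPM, 0.070). Zp3r and Spaca1 encode proteins of the acrosome, the vesicle over the sperm nucleus. For the members with smaller differences it was Pdia6 for Catsperd (216 and 275 CPM, distance 0.031), Srpk1 for Catsper2 (462 and 505 CPM, 0.043) and Tmbim6 for Catsperb (228 and 241 CPM, 0.0062). The number of genes within a distance of 0.1 was 1 for Catsper4, 3 for Catsper3, 4 for Catsper1 and 5 for Catsper2, but 10 for Catsperd and 42 for Catsperb.

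Markers of other cells also differed between the libraries, and their part in the CatSper values was not tested. Pachytene spermatocyte markers, including Ldhc, Hspa2 and Piwil1, summed to 13812 CPM in WT and 13001 CPM in Alkbh1-/-, and 0 of 11 measured passed 1.5-fold in either direction, where 8.06% of all measured genes were higher and 8.79% lower, shares that hold for the counts of the lists that follow too. Round spermatid markers, genes of the stage after meiosis, summed to 661 CPM in WT and 1054 CPM in Alkbh1-/-, and 7 of 11 measured passed 1.5-fold on the higher side and 0 on the lower, with a median log2 difference of 0.79. They ranged from Txndc2 (0.17) to Sun5 (1.05) and Spaca7 (1.19). Other lists with a median above 0 were Leydig (0.84), peritubular myoid (0.70), elongating spermatid (0.47) and spermatogonial and early meiotic (0.40) markers. The medians of the pachytene spermatocyte and Sertoli cell markers were -0.083 and -1.13. Elongating spermatid markers summed to 1959 and 2454 CPM, with 4 of 12 higher and 0 lower by this measure, from Tnp1 (-0.35) and Tnp2 (-0.14), which package the sperm genome, to Gsg1 (0.75) and Odf1 (0.81), an outer dense fibre gene. Sertoli cell markers summed to 2695 and 1331 CPM, with 10 of 11 at least 1.5-fold lower, down to Sox9 (-1.73) and Defb45 (-1.74), and of these Defb45 and Amh reached the floor only in WT. A gene that reached the floor in 1 library alone tends to differ by that choice, so these counts describe the lists and no more. Leydig cell markers summed to 126 and 177 CPM, with 6 of 8 higher and 1, Nr5a1, lower, and of the higher genes Scp2 and Hsd17b3 reached the floor only in Alkbh1-/-. Peritubular myoid markers summed to 50.5 and 72.5 CPM; the 2 of 4 past 1.5-fold, Acta2 and Myh11, reached the floor of 5 CPM only in Alkbh1-/-, where they are high. Spermatogonial and early meiotic markers summed to 727 and 787 CPM, with 4 of 9 measured higher and 0 lower, of which Dmc1 and Mnd1 reached the floor only in Alkbh1-/-. Most of both sums came from Ddx4 alone, at 603 CPM in WT and 654 CPM in Alkbh1-/-. Blood, macrophage and endothelial markers summed to 12.4 and 10.4 CPM. The 1 measured gene among them, Cdh5, was at least 1.5-fold lower (7.38 CPM in WT, 3.97 CPM in Alkbh1-/-, log2 difference -0.75). It reached the floor only in WT. Hba-a1, a haemoglobin gene below the floor, had 0 counts in WT and 1 in Alkbh1-/-. In a bulk library a change in the number of cells of a type and a change in the RNA per cell cannot be told apart. The libraries held 8222671 counts (WT) and 10229260 counts (Alkbh1-/-), from 1 µg and 1.6 µg of RNA. The level of Alkbh1 was 21.0 CPM (WT) and 20.2 CPM (Alkbh1-/-), but since reads were summed over all exons this is no check of the exon 6 deletion.

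**Figure D5:**
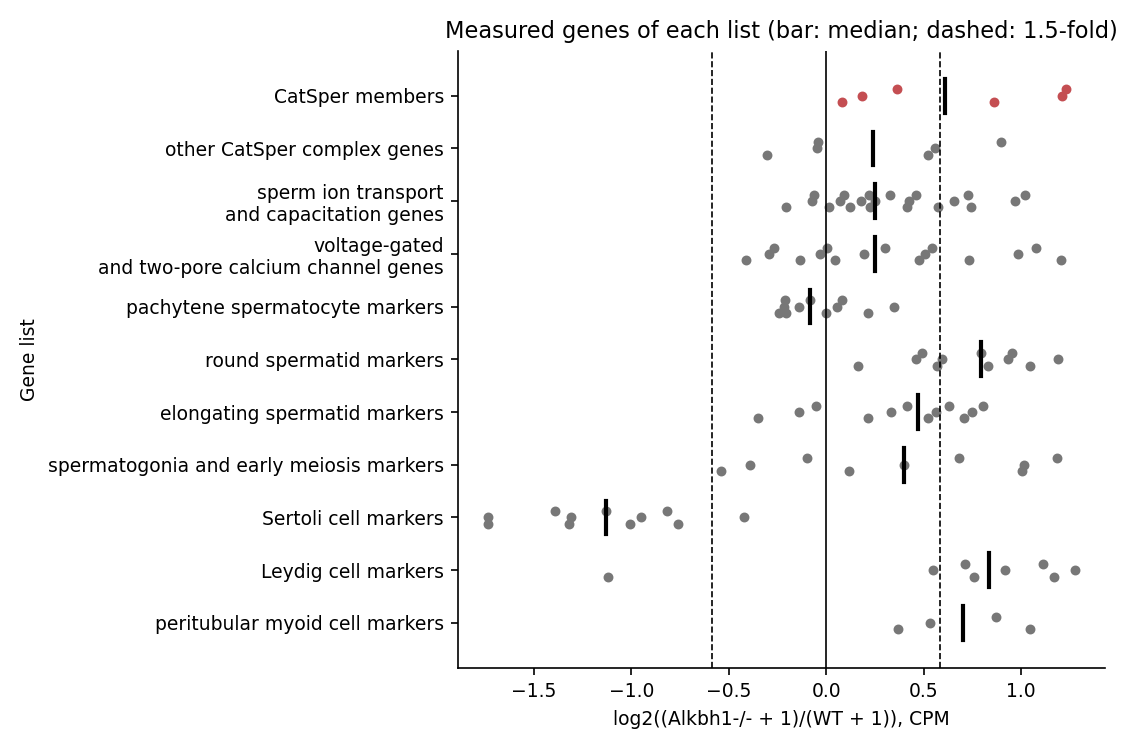
Difference between the libraries, log2((Alkbh1-/- + 1)/(WT + 1)), for each measured gene (points) of the CatSper members (red), the related gene lists and the cell type marker lists (grey), with the median as a bar and dashed lines at 1.5-fold. The CatSper members had a median of 0.61. Medians also lay above 0 for round spermatid (0.79), elongating spermatid (0.47), spermatogonial (0.40), Leydig (0.84) and peritubular myoid (0.70) markers. The last 3 of these lists include genes that reached the floor only in Alkbh1-/-. Medians lay below 0 for pachytene spermatocyte (-0.083) and Sertoli cell (-1.13) markers. The blood list, with 1 measured gene, is left out.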

How the data were processed

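Large RNA of pachytene spermatocytes was selected with oligo(dT), amplified for 15 PCR cycles and read as 75 bp paired ends, per the labels' protocols. The authors deposited unnormalized read counts for each Ensembl gene. Per the submitters' processing notes, tools used included Novoalign, TopHat, bedtools and CASAVA 1.3, on build mm9. The counting tool and its use of strand are not given in these sources. Symbols were matched for 19848 of 21310 identifiers (93.1%) from a table of gene names.

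Counts were scaled by TMM (edgeR 4.0.16, R 4.3.3) to CPM. With 1 library per genotype, no test was run. Ratios have exact (Clopper-Pearson) and shares Wilson 95% intervals, and PCR copies are not independent molecules, so both cover counting error only. The ratio intervals were tried on data simulated with Poisson counting error only, the error that they are built for. For this comparison 96% of 50 genes changed 2-fold had the true ratio in their interval. That checks the calculation and says nothing about variation between animals or preparations. Alternatives were library totals, DESeq2 1.42.0 size factors, pseudocounts of 0.5 and 5 CPM, no floor and a floor of 20 CPM. Python 3.11.15 with numpy 2.4.6, pandas 2.3.3 and scipy 1.17.1 was used.

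Members, lists, markers and motifs were chosen with earlier results of these data known. The rule named every member, every matched complex gene, the 2 highest and 2 lowest measured genes of related lists and 1 nearest gene per member. Pdia3, Alkbh1, Cacna1a, Cacna1c and some further markers were named outside it, after their values were seen. Promoter sequences came from RefSeq tables on GRCm38.p6, which matched 5 of the 6 members. The windows of opposite strands that overlapped were reverse complements in 1839 of 1839 cases. Protein sequences were not used here.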

Additional observations from a re-analysis of the deposited data

How the results depend on the processing

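Of 66 values recomputed under the 6 alternatives, 65 stayed on the same side and within the counting interval, or within 1.5 times for a count. None changed sign. For a median, the interval was that between the medians of the genes' interval ends. The values with no floor and with a floor of 20 CPM could not differ from those reported. Every measured gene of the channel passed 20 CPM in at least 1 library, and the floor does not enter a ratio. Only the values over all genes could differ there. The number of other CatSper complex genes at least 1.5-fold higher was 2 in place of 1 when library totals replaced TMM, because Catsperg1 lies just under the line. Under all 6 alternatives 3 members were at least 1.5-fold higher and 0 lower, while the share of all genes at least 1.5-fold higher, 8.06% in the values reported, was 8.75% with library totals, 7.99% with DESeq2 size factors, 8.53% and 4.59% with pseudocounts of 0.5 and 5 CPM, 8.21% with no floor and 5.54% with a floor of 20 CPM. The median of the members ranged from 0.59 (pseudocount of 5 CPM) to 0.64 (library totals). Library totals moved the median of all genes from -0.017 to 0.014, and Catsperb, the member nearest 0, ranged from 0.080 (DESeq2 size factors) to 0.11. A pseudocount of 5 CPM lowered Catsper3 to 1.10, below Catsper4 at 1.13. No library could be left out, because each genotype has 1. No paired analysis was possible because the mRNA libraries carry no replicate numbers and each genotype has 1 library. Depth limits Catsper3 most, at 180 counts in WT.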

Other observations

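Genes of other calcium channels, the pore and auxiliary subunits of the voltage-gated family and the two-pore channels, were also read in these libraries. Of 28 listed, 26 were matched and 16 measured, with log2 differences from -0.41 to 1.20 and a median of 0.25, like that of the sperm ion transport and capacitation genes. By sign, 11 of the 16 were above 0, against 47.9% of all measured genes. Of the 4 past 1.5-fold, all higher in Alkbh1-/- (8.06% of all genes were), Cacna2d1 and Cacng5 reached the floor of 5 CPM only in Alkbh1-/-, so the floor admitted them by the difference itself. The other two, Cacna1a (15.9 CPM in WT, 32.3 CPM in Alkbh1-/-) and Cacna1c (15.7 and 26.8 CPM), reached it in both libraries. The highest were Cacna2d1, an auxiliary subunit (2.46 CPM in WT, 6.96 CPM in Alkbh1-/-, log2 difference 1.20), and Cacng5 (3.69 and 8.90 CPM, 1.08). The lowest were Cacna2d2 (9.22 and 6.67 CPM, -0.41) and Tpcn1, a two-pore channel of endolysosomes (50.4 and 40.9 CPM, -0.29). Cacna1h, a T-type channel named after its values were seen, had 5993 counts in WT and 6336 in Alkbh1-/-, or 737 and 613 CPM (ratio 0.832, interval 0.803 to 0.862), and so held most of the summed CPM of this list in both libraries, 994 and 920.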
